A study of Mus musculus with 8 samples.

Results

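Granulocyte-monocyte progenitors (GMP) from mice with both copies of Cbfb floxed were compared with GMP from mice with 1 floxed copy, on 4 of the 8 arrays of the series, 2 titled KO GMP and 2 titled Het GMP. Every row of the value table that carried exactly 1 gene symbol entered the comparison, which made 21789 of 35556 rows and 19938 genes. KO mice were Vav1-iCre x Cbfb(F/F) and Het mice were Vav1-iCre x Cbfb(F/+), all C57BL6 N12 backcrossed (an age of 7 weeks is stated once, beside the KO mice, and no other age for the Het mice), so both genotypes carried the Cre recombinase, which the Vav1 promoter drives in blood-forming cells. The other 4 arrays held LSK cells, the lineage-negative fraction that contains the stem cells, from the same genotypes. No mouse without Cre or with both copies intact was analysed here, and a second floxed allele, not the Cre, separated the groups. The submitters state 2 mice a genotype and a high purity of the sort. RNA was amplified and hybridised to Affymetrix Mouse Gene 1.0ST arrays, and each array was titled a biological replicate without naming its mouse, so a p-value here measures spread between arrays, which may be technical. For GMP, replicates 1 and 2 of the labels are called the first and the second array. The submitters' accounts name the amplification kit in different ways.

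CBFβ is the common partner of the RUNX transcription factors. It does not bind DNA itself but makes RUNX binding tighter and more stable, and RUNX1 with CBFβ is known for its part in megakaryocyte maturation, in lymphoid development and in the myeloid lineage. GMP are bone marrow progenitors that give rise mainly to neutrophils and monocytes, and in healthy marrow they carry granule protein transcripts while genes of the platelet and red cell lineages are low.

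Values are log2 RMA values, an array measure in which a difference of 1 is a factor of 2. Differences are KO minus Het, given ± the standard error (SE) from limma, fitted over all 8 arrays with 2 arrays in each of 4 groups, and a gene is said to have risen or fallen where its Benjamini-Hochberg adjusted p over the 21789 rows was under 0.05. For 1 gene taken alone an exact permutation test of 2 against 2 arrays cannot go below 0.333, so every call depends on limma's sharing of the spread across genes and groups. Cbfb itself read 7.53 and 7.65 in Het GMP and 6.48 and 6.96 in KO GMP. It fell by 0.86 ± 0.16 (limma, adjusted p = 0.0130), a call that was lost without the first Het array, the second Het array or the first KO array. The sources used here do not give the place of its probes relative to the deleted part of the gene, which makes this row a limited check of the labels. Runx1, its DNA-binding partner, read 8.69 and 8.74 in Het GMP against 10.23 and 10.15 in KO GMP, a call kept without each single array.

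Granule genes that mark GMP were high in all 4 arrays, while markers of megakaryocytes and of monocytes differed between the genotypes. Mpo, myeloperoxidase, read 12.65 and 12.70 in Het GMP and 12.62 and 12.55 in KO GMP, near the top of the scale in all 4 arrays, where arrays are known to compress differences. Elane, Prtn3 and Ctsg, the neutrophil serine proteases, and Kit, Cd34 and Fcgr3, which mark the GMP gate, were likewise high in all 4 arrays and did not pass the test. Of 9 GMP markers, Fcgr2b rose and Cebpa fell. All 6 measured megakaryocyte progenitor markers rose and all 5 measured monocyte markers fell: the mean over the megakaryocyte markers was 5.60 and 5.85 in Het GMP against 8.11 and 8.57 in KO GMP, and that over the monocyte markers 7.77 and 7.86 against 5.83 and 5.03. The 3 B cell markers, Cd79a, Ebf1 and Pax5, lay below the median of all rows in both genotypes, with means between 3.41 and 3.59 in every array, and 3 of 4 endothelial and stromal markers did too. Among 4 T and NK cell markers none passed. Calls were mixed among erythroid markers (1 rise and 1 fall of 3) and mast cell and basophil markers (1 rise and 2 falls of 5). LSK and stem cell markers gave 1 rise of 5, Slamf1, which is also 1 of the 6 megakaryocyte markers. Among those 6, the Cd9 call was lost without the first Het array, the second Het array or the second KO array. The Vwf call was lost without the first or the second Het array. Markers that the GMP gate excludes gave 1 rise of 7. The neutrophil markers were the ones that differed most between the Het arrays, with a mean of 10.03 in replicate 1 and 10.77 in replicate 2 against 10.14 and 9.81 in KO GMP. That mean joins opposite movements. Retnlg rose by 2.46, a call lost without the first Het array or either KO array. Ltf and Ngp differed by -1.86 and -2.22, and no neutrophil marker besides Retnlg passed. In sorted bulk samples a change in the share of a cell type and a change in RNA per cell cannot be told apart, and the part of such a mixture in the results was not tested.

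In all, 1312 rows (6.02%) passed the test, of which 752 (3.45%) were higher and 560 (2.57%) lower in KO GMP. Counted as genes with 1 row each, 3.52% were higher and 2.65% lower, and these are the shares against which each group of genes is read. In each called row both KO arrays lay beyond both Het arrays, which was also so for 51.3% of all rows tested. Changes of 4-fold or more numbered 121 rises and 53 falls, and of 8-fold or more 36 rises and 10 falls, so the large changes leaned to gains. The median difference over all genes was -0.02. The counts depended on having both arrays of a group: without the first Het array they were 404 higher and 233 lower, without the second Het array 454 and 269, without the first KO array 473 and 332, and without the second KO array 408 and 226. With all rows of the table tested together they were 482 and 302. Replicates within a genotype correlated at 0.995 across rows and arrays of different genotypes between 0.980 and 0.983. The KO arrays differed from each other in degree: the second KO array was the lower of the pair in 382 of the 560 called falls and the higher in 442 of the 752 called rises.

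**Figure D1:**
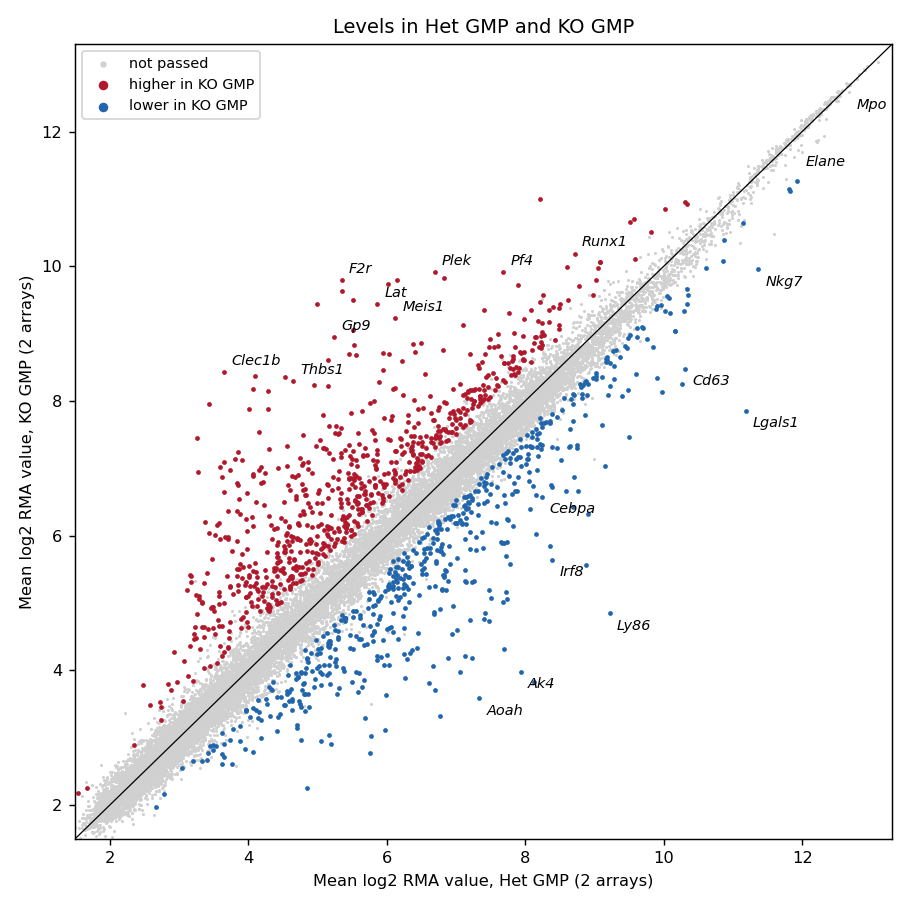
Mean log2 RMA value of each row in Het GMP (horizontal axis, 2 arrays) against KO GMP (vertical axis, 2 arrays), with called rises in red, called falls in blue and the line of equal levels in black. Rises of 4-fold or more number 121 and falls 53, and Mpo and Elane lie close to the line.

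Called rises started from lower levels in Het GMP than called falls. Since the same Het arrays enter the calls and these levels, this contrast is a description only. The median level of the called rises was 5.39 in Het and 6.78 in KO GMP, and that of the called falls 6.71 and 5.47, with the median of all rows at 4.92 and 4.97. When rows were ranked by their mean over the 8 arrays and cut into 5 groups of equal size, the lowest group gave 4 rises and 8 falls, the next 40 and 75, the middle one 239 and 196, the next 285 and 174, and the highest 184 and 107. Calls were thus nearly absent at the lowest levels, falls outnumbered rises in the lower pair of groups, and rises outnumbered falls in the upper 3.

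**Figure D2:**
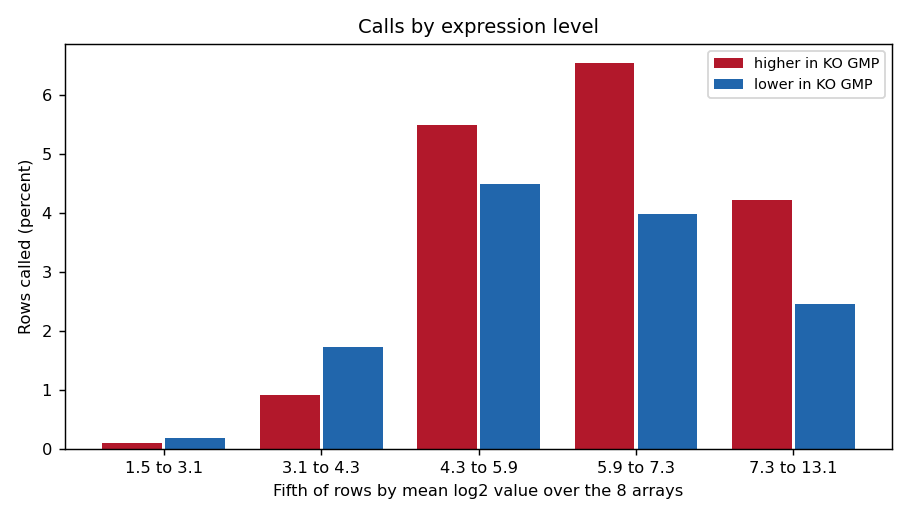
Percent of rows called higher (red) or lower (blue) in KO GMP in 5 groups of rows of equal size, ranked by the mean log2 value over the 8 arrays (horizontal axis, lowest and highest mean of each group). The share called higher is largest in the group next to the highest, at 6.54%, and the share called lower in the middle group, at 4.50%.

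A few genes crossed most of the scale. From below the median of all rows in Het GMP (4.92) to above 7.02 in KO GMP went 24 called rows, and 12 went the other way, from above 7.03 to below 4.97. The first set held genes known from platelets or their precursors (Clec1b, Mmrn1, Thbs1, Ppbp, Prkcq, Slc35d3 and Ache among them) and others. Clca3a1, of the calcium-activated chloride channel regulator family, read 3.55 and 3.30 in Het GMP and 7.50 and 8.42 in KO GMP, and Mtss2 4.61 and 3.58 against 8.22 and 8.53. Pcdh7, a protocadherin, read 4.34 and 4.23 in Het GMP and 8.11 and 8.19 in KO GMP. Slc35d3, a transporter needed for platelet dense granules, read 4.46 and 4.60 against 8.26 and 8.44. Gnb4, a G protein beta subunit, read 3.95 and 4.62 against 7.82 and 7.95, and Ache, acetylcholinesterase, which rodent megakaryocytes are known to contain, 3.80 and 4.50 against 7.45 and 7.64. For Pcdh7, Slc35d3, Gnb4 and Ache the arrays of the genotypes were far apart, with differences of 3.86 ± 0.18, 3.82 ± 0.24, 3.60 ± 0.21 and 3.39 ± 0.33 (limma, adjusted p between 1.74e-05 and 0.000408). The 12 rows that went down across the scale included Ly86, Aoah, Met, Asns, Ctss and Ak4, which are described with their groups. They also included Sorl1, at 7.63 and 7.76 in Het GMP against 4.54 and 4.10 in KO GMP. Ly6a2, of the Ly6 surface protein family, was another, at 8.02 and 8.23 against 4.31 and 3.34. Clca3a1 and Ly6a2 have close relatives whose transcripts a probe may also bind.

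The promoters of the 3 largest gains among platelet surface receptors and the 3 largest losses among monocyte genes are shown because, of the 44 gene lists counted, these had the largest share of rises and of falls. Each runs from 250 bases before to 50 bases after the RefSeq start (GRCm38.p6), 5′ to 3′ on the strand of the gene, with capitals marking 3 kinds of match on either strand. RUNX-type letters were TGTGGT and, with 1 base changed, TGCGGT. Those of the GATA type were AGATAA and, with 1 base changed, TGATAA. Those of the ETS type were TTCCGG and, with 1 base changed, TTCCTG. Clec1b lies at chr6:129397047-129397346 (plus), F2r at chr13:95618417-95618716 (minus), Gp5 at chr16:30310732-30311031 (minus), Ly86 at chr13:37345095-37345394 (plus), Aoah at chr13:20793863-20794162 (plus) and Gpr141 at chr13:19824208-19824507 (minus).
Clec1b: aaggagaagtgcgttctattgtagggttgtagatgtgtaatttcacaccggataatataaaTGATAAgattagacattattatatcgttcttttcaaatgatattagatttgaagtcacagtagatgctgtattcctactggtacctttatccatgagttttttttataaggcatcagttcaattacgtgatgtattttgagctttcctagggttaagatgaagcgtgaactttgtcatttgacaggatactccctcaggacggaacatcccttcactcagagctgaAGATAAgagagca
F2r: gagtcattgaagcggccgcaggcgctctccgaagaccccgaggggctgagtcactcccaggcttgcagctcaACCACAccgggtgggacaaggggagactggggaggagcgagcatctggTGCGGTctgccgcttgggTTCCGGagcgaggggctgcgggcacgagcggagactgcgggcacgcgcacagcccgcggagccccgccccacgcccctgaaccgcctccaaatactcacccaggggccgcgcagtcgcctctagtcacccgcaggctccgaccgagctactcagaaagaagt
Gp5: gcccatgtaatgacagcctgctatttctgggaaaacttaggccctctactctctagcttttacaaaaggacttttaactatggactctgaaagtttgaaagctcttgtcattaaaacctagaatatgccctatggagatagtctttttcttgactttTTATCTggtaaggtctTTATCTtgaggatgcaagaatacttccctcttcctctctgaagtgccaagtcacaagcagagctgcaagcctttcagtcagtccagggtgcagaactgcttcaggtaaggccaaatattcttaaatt
Ly86: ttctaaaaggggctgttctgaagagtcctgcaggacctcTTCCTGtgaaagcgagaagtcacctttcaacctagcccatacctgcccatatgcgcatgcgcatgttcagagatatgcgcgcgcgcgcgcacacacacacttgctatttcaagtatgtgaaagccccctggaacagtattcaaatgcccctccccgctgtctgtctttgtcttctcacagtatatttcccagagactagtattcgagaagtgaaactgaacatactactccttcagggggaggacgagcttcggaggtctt
Aoah: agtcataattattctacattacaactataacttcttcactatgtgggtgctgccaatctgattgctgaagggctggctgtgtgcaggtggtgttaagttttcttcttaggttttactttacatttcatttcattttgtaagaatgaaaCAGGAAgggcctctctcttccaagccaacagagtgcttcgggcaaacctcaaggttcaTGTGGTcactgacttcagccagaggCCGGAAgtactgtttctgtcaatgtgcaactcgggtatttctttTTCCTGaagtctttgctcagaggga
Gpr141: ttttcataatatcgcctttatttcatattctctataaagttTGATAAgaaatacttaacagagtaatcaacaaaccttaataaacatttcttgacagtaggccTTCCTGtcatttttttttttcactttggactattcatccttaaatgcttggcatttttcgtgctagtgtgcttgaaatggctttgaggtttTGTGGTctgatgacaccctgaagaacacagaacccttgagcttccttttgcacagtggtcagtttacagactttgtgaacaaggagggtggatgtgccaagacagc
In these windows Clec1b and Gp5 each held 2 GATA-type matches and no RUNX-type match, F2r held 2 RUNX-type matches and 1 ETS-type match, Aoah held 1 RUNX-type and 3 ETS-type matches, Gpr141 held 1 of each type and Ly86 held 1 ETS-type match. A promoter was matched for 15614 of the 19938 genes. A RUNX-type match was present in 21.3% of these promoters, in 24.6% of the 553 belonging to called rises and in 26.1% of the 422 belonging to called falls. Among the 92 promoters of genes that rose 4-fold or more, 20.7% held a RUNX-type and 23.9% a GATA-type match, against 15.1% with a GATA-type match over all matched genes, and among the 39 that fell 4-fold or more the shares were 28.2% and 17.9%. Over all called genes, of any size of change, a GATA-type match was present in 12.5% of the rises and 15.6% of the falls. ETS-type matches were present in 42.9% of all matched promoters, 40.5% of the rises and 41.0% of the falls. These are counts of letters in a short window and were not tested.

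Platelet surface receptors were the group with the largest share of gains: 16 of 21 measured genes rose and none fell, with a median difference of 1.75. Clec1b, the podoplanin receptor CLEC-2, read 3.45 and 3.85 in Het GMP and 8.41 and 8.44 in KO GMP. Gp9, a subunit of the von Willebrand factor receptor, read 4.95 and 5.53 against 8.83 and 9.06, and Itgb3, the beta chain of the fibrinogen receptor, 4.80 and 5.52 against 8.31 and 8.90. Clec1b started below the median of all rows and the other pair near it, and all 3 ended well above it, by 4.78 ± 0.21, 3.70 ± 0.20 and 3.45 ± 0.27 (limma, adjusted p = 1.59e-05, 2.73e-05 and 0.000138). F2r, the thrombin receptor PAR1, read 5.13 and 5.57 against 9.62 and 9.98, and Gp5, another subunit of the von Willebrand factor receptor, 5.02 and 4.97 against 9.28 and 9.59. Smaller gains were seen in F2rl2, the thrombin receptor PAR3 (2.76 ± 0.23), in the nucleotide receptors P2rx1 (1.75 ± 0.20) and P2ry1 (1.53 ± 0.18) and in Pear1, a platelet aggregation receptor (1.70 ± 0.25). The count stayed between 14 and 16 whichever GMP array was left out.

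Genes of platelet granules and coagulation rose in 13 of 19 cases, with a median difference of 1.32. Thbs1, thrombospondin 1, read 4.54 and 4.75 in Het GMP and 8.14 and 8.43 in KO GMP. Alox12, the platelet 12-lipoxygenase, read 3.56 and 3.91 against 6.79 and 7.16, and Rab27b, a GTPase of dense granule release, 3.39 and 3.92 against 6.52 and 6.78. Pf4, platelet factor 4, already well expressed in Het GMP at 7.41 and 7.95, reached 9.67 and 10.14, and the related chemokine Ppbp went from 4.43 and 5.14 to 7.18 and 6.99. The 1 member that fell was F10, coagulation factor X, which read 7.93 and 7.63 in Het GMP and 5.82 and 5.33 in KO GMP and fell by 2.20 ± 0.18 (limma, adjusted p = 0.000172). Factor X is made mainly in liver and is also found in macrophages. Leaving out a GMP array gave 9 to 12 rises in this list.

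Signalling components that platelet receptors use rose in 10 of 22 cases, with none lower and a median difference of 0.60. Lat, an adaptor of receptor tyrosine signalling, read 5.72 and 6.01 in Het GMP and 9.26 and 9.61 in KO GMP. Plek, pleckstrin, the main protein kinase C substrate of platelets, went from 6.55 and 6.83 to 9.83 and 10.01. Rap1b, the GTPase of integrin activation, rose from 9.53 and 9.49 to 10.57 and 10.74. Without the first Het array or the second KO array the list had 6 rises.

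Some second messenger enzymes gained too, though most members of their families did not pass. Of 47 phosphodiesterase and cyclase genes 9 rose and 1 fell, with a median difference of 0.05. The rises included both subunits of soluble guanylate cyclase, the nitric oxide receptor. Gucy1b1 read 3.25 and 3.06 in Het GMP and 5.42 and 5.42 in KO GMP, and Gucy1a1 3.96 and 3.99 against 5.88 and 6.25. Pde5a, which degrades cyclic GMP, read 4.25 and 4.24 against 6.66 and 7.19. All of these were below the median of all rows in Het GMP and above it in KO GMP, and the differences were 2.27 ± 0.27, 2.09 ± 0.14 and 2.68 ± 0.19 (limma, adjusted p = 0.00126, 6.36e-05 and 7.05e-05). The cyclic GMP-dependent kinase Prkg1, chosen after its values were seen, read 3.36 and 3.98 against 5.75 and 6.20. On the cyclic AMP side Pde10a (1.81 ± 0.14), Pde4b (1.47 ± 0.21), Pde3b (1.22 ± 0.16) and the cyclase Adcy6 (1.47 ± 0.20) rose, while Pde8a fell by 0.96 ± 0.14. Without any 1 of the 4 GMP arrays the family had 7 rises, and without the first KO array it had 2 falls.

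Of 63 genes for diacylglycerol and inositol lipid enzymes 9 rose and 4 fell, with a median difference of 0.06, and 4 protein kinase C genes were among the rises. Prkcq, the theta isoform of T cells and platelets, read 3.93 and 4.20 in Het GMP and 7.97 and 8.40 in KO GMP, and Prkca 4.13 and 4.72 against 6.74 and 7.28. Prkce and Prkch moved less, by 1.41 ± 0.13 and 1.31 ± 0.13. The phospholipase Plcb1 went down from 4.12 and 4.01 to 2.75 and 2.82. The family had 5 rises without the first Het array or the first KO array, 1 fall without the first Het array or the second KO array and 2 falls without the second Het array.

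The cytoskeletal genes of megakaryocytes did not follow the receptors: 4 of 20 rose and 5 fell, with a median difference of 0.20. Arhgap6, a GTPase activating protein, rose from 4.43 and 4.72 to 6.57 and 6.92 and Tpm1, a tropomyosin, from 6.11 and 6.02 to 7.02 and 7.17. Among the falls were the actin cross-linkers Actn1, at 7.61 and 7.40 against 6.66 and 6.88, and Flna, at 9.12 and 9.23 against 8.66 and 8.50. These falls were small and rested on both arrays of each genotype: without the first Het array the list had 1 fall, without any other single GMP array 0 falls, and without either Het LSK array 3. The count of rises was 2 without the second Het array or the second KO array.

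Transcription factors of the megakaryocyte and erythroid branch rose in 6 of 20 cases and fell in none, with a median difference of 0.48. Gfi1b, a repressor needed in both lineages, read 5.67 and 6.11 in Het GMP and 8.32 and 8.23 in KO GMP. Zfpm1, the GATA1 cofactor FOG1, read 5.56 and 5.42 against 7.73 and 7.91, and Gata1 5.07 and 4.65 against 6.79 and 7.18. The call of Gata2 (1.61 ± 0.27), the GATA factor of stem and mast cells, was lost without the first Het array or the second KO array. Klf1, the main erythroid activator, read 4.99 and 4.99 against 5.07 and 5.37 and did not pass. Without the second KO array the list had 3 rises.

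Red cell genes moved less than platelet genes: 7 of 29 rose, 1 fell, and the median difference was 0.07. The water channel Aqp1 read 4.21 and 4.40 in Het GMP and 7.05 and 7.54 in KO GMP, and Samd14, a GATA target in red cell progenitors, 4.78 and 4.35 against 6.77 and 7.30. Hemgn went from 5.13 and 5.31 to 6.73 and 7.00, and Epor, the erythropoietin receptor, from 4.56 and 4.48 to 5.32 and 5.57. Outside the list, Slc14a1, a urea transporter of red cells, went from 5.67 and 6.36 to 9.44 and 10.03. Car1, carbonic anhydrase 1, fell from 6.98 and 7.98 to 5.30 and 4.17, a difference of -2.75 ± 0.42 (limma, adjusted p = 0.00507). The list had 4 rises without the first Het array, the first KO array or the second KO array.

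Some genes for surface proteins and transcription factors of stem cells rose, although of 5 LSK and stem cell markers only Slamf1 passed. Of 20 surface and secreted products 10 rose and none fell (median difference 0.74), and of 28 transcription factors 9 rose and none fell (median 0.37). The largest difference among the surface and secreted products, 3.45, is that of Itgb3, given above with the platelet receptors. Slamf1, the stem cell marker CD150, read 3.80 and 3.39 in Het GMP and 6.74 and 7.29 in KO GMP, and Tek, the receptor of angiopoietins, 3.55 and 3.70 against 6.78 and 6.97. Its ligand Angpt1 went from 5.83 and 6.64 to 7.80 and 8.38 and Adgrg1, also called GPR56, from 7.91 and 7.63 to 9.31 and 9.31. Meis1, a homeobox cofactor, read 6.0 and 6.24 against 9.20 and 9.27, whereas Mecom, at 3.27 and 3.25 against 3.18 and 3.19, and Procr stayed low in all 4 arrays. Other rises were Eya1 (1.88 ± 0.23), Mllt3 (1.70 ± 0.19) and Pbx3 (1.23 ± 0.18). Of 32 Hox, Meis and Pbx genes only Meis1 and Pbx3 passed. Without the second KO array the transcription factor list had 5 rises.

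Several receptors better known from vessels rose, although none of the 4 endothelial and stromal markers passed. In a list of 28 endothelial or stromal genes 7 rose and 2 fell (median 0.03). Emcn, endomucin, read 3.65 and 3.52 in Het GMP and 5.92 and 5.98 in KO GMP, and Kdr, the VEGF receptor 2, 3.18 and 3.18 against 5.42 and 5.37. Eng and Tie1 rose by 1.17 ± 0.16 and 1.16 ± 0.18, and Flt1, the VEGF receptor 1, fell from 5.01 and 4.74 to 3.39 and 3.52. Without any single GMP array the list had 1 fall.

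Guidance receptors and sulphated or sialylated glycan enzymes showed gains and losses side by side. Of 52 semaphorin, plexin and ephrin genes 7 rose and 3 fell. Plxnc1, a semaphorin 7A receptor, read 6.68 and 6.98 in Het GMP and 9.74 and 9.91 in KO GMP and its ligand Sema7a 4.17 and 4.52 against 5.72 and 6.17. Sema4a fell from 8.74 and 8.62 to 6.34 and 6.50, and Nrp1, a semaphorin and VEGF co-receptor, from 4.69 and 5.03 to 3.57 and 3.72. The family had 3 rises without the first Het array or the second KO array, 4 without the second Het array, and 5 falls without the first KO array. Of 123 glycosyltransferase genes 9 rose and 10 fell. The sialyltransferase St3gal6 rose from 4.02 and 3.61 to 6.89 and 7.39 and the sulphotransferase Chst1 from 4.0 and 4.13 to 6.77 and 7.06, and Gcnt2, which branches polylactosamine, from 5.95 and 5.95 to 8.53 and 8.38. The fucosyltransferases of selectin ligands went down, Fut7 by 1.10 ± 0.14 and Fut4 by 1.09 ± 0.15, as did their protein scaffold Selplg (PSGL-1), from 9.90 and 9.79 to 8.97 and 8.63. Galnt3 and B3gnt5 fell by 2.06 ± 0.12 and 3.45 ± 0.22. Leaving out any GMP array gave 5 or 6 falls in this family.

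Potassium channel genes changed about as often as all genes did, with 4 of 92 higher (4.35%) and 4 lower (4.35%), so the values below describe single genes and not the family. The inward rectifier Kcnj5 read 3.68 and 4.34 in Het GMP and 7.97 and 7.78 in KO GMP, and the leak channel Kcnk9 3.39 and 3.49 against 6.30 and 5.79. Kcnj2, another inward rectifier, fell from 4.99 and 4.53 to 2.98 and 2.94, and Kcnip3 fell by 1.74 ± 0.17.

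**Figure D3:**
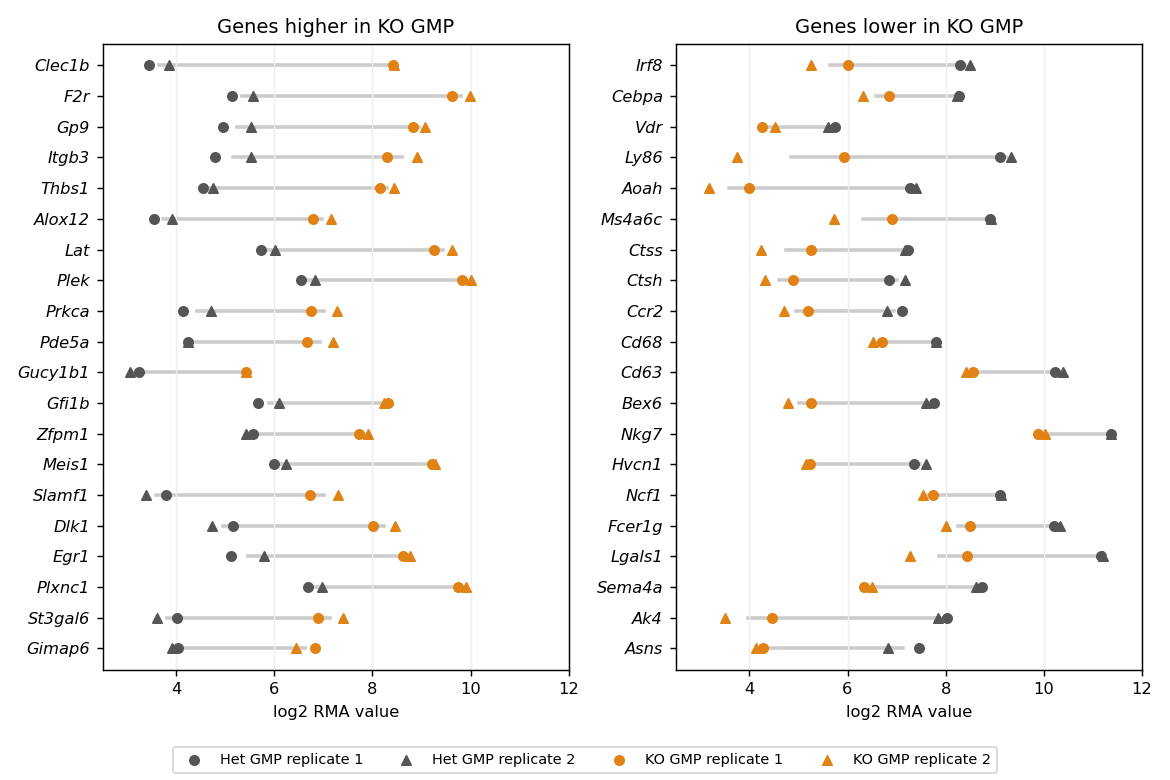
Log2 RMA values of 20 genes higher (left) and 20 genes lower (right) in KO GMP, with Het GMP arrays in grey and KO GMP arrays in orange (circle for replicate 1, triangle for replicate 2) and a grey bar joining the group means. The genotypes do not overlap for any gene shown, and the KO arrays lie farther apart from each other among the losses, as for Ly86 at 5.93 and 3.76.

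Immediate early genes, which answer to growth factor and stress signals and also to cell handling, were gained as well. Of 32 genes 14 rose and 1 fell, with a median difference of 0.68. Egr1 read 5.12 and 5.79 in Het GMP and 8.63 and 8.76 in KO GMP, a difference of 3.24 ± 0.24 (limma, adjusted p = 8.93e-05). Btg2, an antiproliferative gene, read 7.44 and 7.79 against 9.06 and 8.94, and Ier5 4.41 and 4.61 against 5.67 and 5.84. The list had 5 rises without the first Het array, 6 without the second KO array and 9 without the first KO array, and its fall was lost without any of these 3 arrays. The sources used here do not describe handling array by array, and its part was not tested.

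Interferon response genes rose modestly: 9 of 30 rose, 2 fell, and the median difference was 0.41. Oasl2, an oligoadenylate synthetase-like protein, read 5.65 and 5.35 in Het GMP and 6.82 and 6.72 in KO GMP, and Ddx58, the RNA sensor RIG-I, 6.23 and 6.04 against 7.31 and 7.21. Both stayed called without any single array. Gbp3 fell from 7.44 and 7.15 to 6.29 and 5.67, a call lost without the first Het array or the second KO array. The list had 2 rises without the second Het array, 3 without the first KO array and 4 without the second KO array, and 0 or 1 falls without any 1 of the 4 GMP arrays. Of 45 guanylate-binding, Gimap and related interferon-inducible genes 9 rose and 4 fell, with 3 to 5 rises and 0 to 3 falls when a GMP array was left out. Of its Gimap GTPases, survival factors of lymphocytes, Gimap6 rose from 4.04 and 3.92 to 6.83 and 6.44 and Gimap1 from 4.74 and 4.72 to 6.22 and 6.09.

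Imprinted genes and lipid mediators added shorter lists of gains. Of 20 imprinted genes 5 rose and none fell (median 0.17): Dlk1, a Notch-like surface protein, read 5.17 and 4.72 in Het GMP and 8.0 and 8.47 in KO GMP, and Grb10, a growth factor receptor adaptor, 6.19 and 5.87 against 8.71 and 8.69. Without the first Het array the imprinted list had 3 rises. Of 26 genes of eicosanoid synthesis and reception 6 rose and none fell, although the median of that list was -0.06; besides Alox12 they included Ptger3, a prostaglandin E receptor, at 5.11 and 5.05 against 7.11 and 7.49. The eicosanoid list had 3 rises without the first Het array, the second Het array or the second KO array. Of 33 sphingolipid genes 6 rose and 3 fell, and the receptors of sphingosine 1-phosphate moved in opposite directions: S1pr1 went from 3.78 and 4.63 to 6.75 and 6.84, and S1pr3 from 6.60 and 6.79 to 4.02 and 3.39.

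The losses were led by genes of monocytes and macrophages, of which 16 of 37 fell and 2 rose, with a median difference of -0.57. Ly86, also called MD-1, is a partner of the Toll-like protein CD180, whose own gene Cd180 rose by 1.33. Ly86 read 9.11 and 9.33 in Het GMP and 5.93 and 3.76 in KO GMP, with the KO arrays far apart from each other. Aoah, the enzyme that detoxifies lipopolysaccharide, read 7.27 and 7.40 against 3.99 and 3.18, and the orphan receptor Gpr141 5.73 and 5.77 against 2.95 and 2.59. The differences were -4.37 ± 0.57, -3.75 ± 0.25 and -2.98 ± 0.16 (limma, adjusted p = 0.00197, 5.98e-05 and 2.73e-05). Receptors of monocyte traffic fell with them: Ccr2 from 7.11 and 6.81 to 5.20 and 4.71 and Cx3cr1 from 6.66 and 6.93 to 5.22 and 5.20. Cd68, a lysosomal protein of macrophages, fell by 1.19 ± 0.13, while the call of Csf1r, the M-CSF receptor (7.68 and 7.74 against 6.77 and 6.19), was lost without the first Het array, the second Het array or the second KO array. The rises were Cd14 and Fcgr2b, and both calls were lost without the first Het array, the second Het array or the first KO array. The list had 9 falls without the first Het array or the second KO array. All 3 promoters printed for losses belong to this list.

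The MS4A genes, a cluster of membrane proteins of which several mark monocytes, fell in 5 of 19 cases and rose in none. Ms4a6c read 8.90 and 8.92 in Het GMP and 6.91 and 5.73 in KO GMP, Ms4a6b 7.63 and 7.68 against 6.20 and 5.57, and Ms4a2, the beta chain of the mast cell IgE receptor, 5.79 and 5.51 against 3.76 and 3.74. The members that fell were thus spread over high and middle levels, and they included a mast cell gene beside the monocyte genes. The family had 3 falls without the first Het array or the second KO array.

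Transcription factors of myeloid fate split. Irf8, which directs monocyte and dendritic cell fate, read 8.28 and 8.49 in Het GMP and 6.02 and 5.27 in KO GMP, and Cebpa, needed for the formation of GMP, 8.26 and 8.23 against 6.84 and 6.32. Vdr, the vitamin D receptor, fell from 5.75 and 5.61 to 4.25 and 4.52. The 3 falls, by 2.74 ± 0.24, 1.67 ± 0.17 and 1.29 ± 0.15 (limma, adjusted p = 0.000258, 0.000487 and 0.000919), held without each single array, and the list had 6 falls without either KO LSK array. Of 30 genes 4 rose, among them Egr1 and Rxra (0.84 ± 0.12), and the count of rises was 2 without the first Het array, the second Het array or the second KO array. The median difference of the list was 0.06.

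Primary granule and promyelocyte genes fell in 10 of 25 cases and rose in none, with a median difference of -0.47, but Mpo, Elane, Prtn3 and Ctsg were not among them. Mpo differed by -0.09 with a 95% confidence interval from -0.51 to 0.33, and Elane by -0.21. Cd63, the granule membrane tetraspanin, read 10.23 and 10.39 in Het GMP and 8.56 and 8.40 in KO GMP. Nkg7, a granule membrane protein at 11.36 and 11.37 in Het GMP, read 9.88 and 10.03 in KO GMP, and Bex6 7.77 and 7.59 against 5.25 and 4.78. The differences were -1.83 ± 0.16, -1.41 ± 0.20 and -2.67 ± 0.28 (limma, adjusted p = 0.000207, 0.00283 and 0.000595). Without the first Het array or the second Het array the list had 4 falls, without the first KO array 6 and without the second KO array 3.

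Genes of secondary granules and mature neutrophils moved both ways, with 6 of 31 higher and 8 lower. Cxcr2, the neutrophil chemokine receptor, read 6.20 and 6.24 in Het GMP and 8.79 and 8.40 in KO GMP, and the lectin Clec4d 4.71 and 4.67 against 6.56 and 6.52. Clec5a fell from 7.96 and 7.75 to 6.90 and 6.44. The granule genes Ltf and Ngp did not pass, and their Het arrays stood apart from each other, Ltf at 8.29 and 9.70 and Ngp at 10.13 and 11.01, against 7.40 and 6.87 and 8.78 and 7.92 in KO GMP. The falls numbered 1 without the second KO array, 2 without the second Het array or the first KO array and 4 without the first Het array, and the rises 2 without the first KO array and 3 without either Het GMP array.

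Some transcripts of lysosomes and of the phagocyte oxidase fell. Of 39 lysosomal and endosomal genes 9 fell and none rose, with a median difference of -0.22, and the cysteine proteases changed most: Ctsh read 6.85 and 7.18 in Het GMP and 4.88 and 4.32 in KO GMP and Ctss 7.23 and 7.17 against 5.26 and 4.23. Cd63, described above, is also in this list. The list had 3 falls without the first Het array or the second KO array, 4 without the second Het array and 5 without the first KO array. Of 8 genes listed for the NADPH oxidase, the enzyme that makes superoxide, 2 fell. The oxidase component Ncf1 went from 9.10 and 9.13 to 7.75 and 7.53. Hvcn1, a proton channel listed with the oxidase and not a subunit of it, went from 7.35 and 7.60 to 5.24 and 5.15. Both held without each single array. Among Fc and phagocytic receptors 4 of 32 fell and 3 rose. Fcer1g, the signalling chain shared by Fc receptors, read 10.21 and 10.33 against 8.50 and 8.0. That list had 2 falls without the first Het array, and 1 rise without either Het GMP array or the first KO array.

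Mast cell, basophil and eosinophil genes also split, with 5 of 29 higher and 6 lower. The 6 that fell included the basophil proteases Mcpt8, at 8.73 and 8.67 in Het GMP against 7.34 and 6.39 in KO GMP, and Prss34, at 5.89 and 6.0 against 4.53 and 4.38, and eosinophil peroxidase Epx, at 5.71 and 5.39 against 4.04 and 3.90. These 3 fell by 1.84 ± 0.25, 1.49 ± 0.13 and 1.58 ± 0.16. The other falls were the IgE receptor chains Fcer1g and Ms4a2, given above, and granzyme B (Gzmb, -1.55 ± 0.29), whose call was lost without the second KO array. Cd200r4, an activating receptor of basophils and mast cells, rose from 3.09 and 3.14 to 5.42 and 4.96. The other rises were Gata2, given above, Il4, interleukin 4 (1.07 ± 0.20), Cpa3, the mast cell carboxypeptidase (0.93 ± 0.23), and Ltc4s, leukotriene C4 synthase (0.75 ± 0.17), so granule proteases and receptors stood on both sides. The call of Il4 was lost without either KO GMP array, that of Ltc4s without the second Het array or either KO GMP array, and that of Cpa3 without any 1 of 6 arrays. The list had 3 rises without the first Het array or the second KO array and 2 without the first KO array. Of 26 dendritic cell and antigen presentation genes 2 rose and 2 fell, with a median difference of -0.10. H2-Aa and Cd74, a class II chain and the class II chaperone, fell by 2.07 ± 0.23 and 1.64 ± 0.26, the second call being lost without the second Het array, while Clec9a, a dendritic cell lectin, rose from 3.49 and 3.81 to 7.27 and 6.94 and the class II gene H2-Ob from 4.76 and 5.21 to 6.77 and 6.19. The call of H2-Ob was lost without the first Het array or the first KO array, each of which left 1 rise in the list.

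Surface receptors for cytokines changed in both directions, 5 of 38 higher and 6 lower. The interleukin 7 receptor Il7r, which the GMP gate should exclude, read 3.40 and 3.42 in Het GMP and 5.58 and 5.30 in KO GMP. Met, the hepatocyte growth factor receptor, read 7.08 and 7.37 against 4.57 and 3.81. Il1rap, the shared chain of interleukin 1 family receptors, fell by 0.94 ± 0.13. The list had 2 falls without the first Het array or the second KO array and 3 without the second Het array. Lgals1, galectin 1, abundant in Het GMP, read 11.16 and 11.21 against 8.44 and 7.27. Of 27 early lymphoid genes 4 rose and 4 fell, and Notch1 went from 6.62 and 6.76 to 5.38 and 5.13 and Emb, embigin, from 9.94 and 10.01 to 8.36 and 7.90. The early lymphoid list had 2 rises without the first Het array and 2 falls without the second Het array.

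Most metabolic genes did not pass, but some moved far. Of 30 glycolysis and hypoxia genes 5 fell (16.7%, against 2.65% over all genes) and 1 rose, with a median difference of -0.18. Ak4, a mitochondrial adenylate kinase induced by hypoxia, read 8.02 and 7.84 in Het GMP and 4.46 and 3.50 in KO GMP, the oxygen sensor Egln3 7.76 and 7.72 against 6.39 and 6.11, and Pgam1, phosphoglycerate mutase, 10.21 and 10.11 against 9.09 and 9.0. Ak4 and Pgam1 kept their calls without each single array and Egln3 lost its call without the second KO array. The list had 3 falls without either Het GMP array or the first KO array and 2 without the second KO array, and its rise was lost without the second Het array or the second KO array. Asns, asparagine synthetase and a target of the amino acid stress response, went from 7.45 and 6.82 to 4.27 and 4.14, and was the largest of 3 falls among 28 genes of the unfolded protein response. That list had 1 fall without any 1 of the 4 GMP arrays.

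Most genes of growth and division changed little. Of 41 cell cycle genes and 36 ribosomal protein genes none passed limma's test, and at an unadjusted p under 0.05 the counts were 2 lower and 0 higher for the cell cycle and 0 for the ribosomal proteins. The median difference was -0.20 for the cell cycle genes, of which 38 lay below 0, and 0.03 for the ribosomal proteins. Aurkb, a mitotic kinase with the largest difference in the cell cycle list, read 9.13 and 9.06 in Het GMP and 8.38 and 8.70 in KO GMP, and the 95% interval of its difference ran from -1.12 to 0.02. Of 45 oxidative phosphorylation genes 1 fell, Cycs (cytochrome c), and 44 had a difference below 0, with a median of -0.16. The Cycs call was lost without any 1 of the 4 GMP arrays. The D-type cyclins Ccnd1 and Ccnd2 fell by 0.85 ± 0.12 and 0.75 ± 0.12, the second call being lost without the first Het array or the first KO array. In the p53 and apoptosis list 3 of 25 genes rose, among them the survival gene Bcl2l1 (Bcl-xL), at 5.95 and 5.75 against 7.13 and 7.28. When each array's median was subtracted, the calls over all genes became 697 higher and 696 lower in place of 752 and 560. No called row changed its sign, but the medians of the GMP arrays lay between 4.92 and 4.99, so the shift was small.

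**Figure D4:**
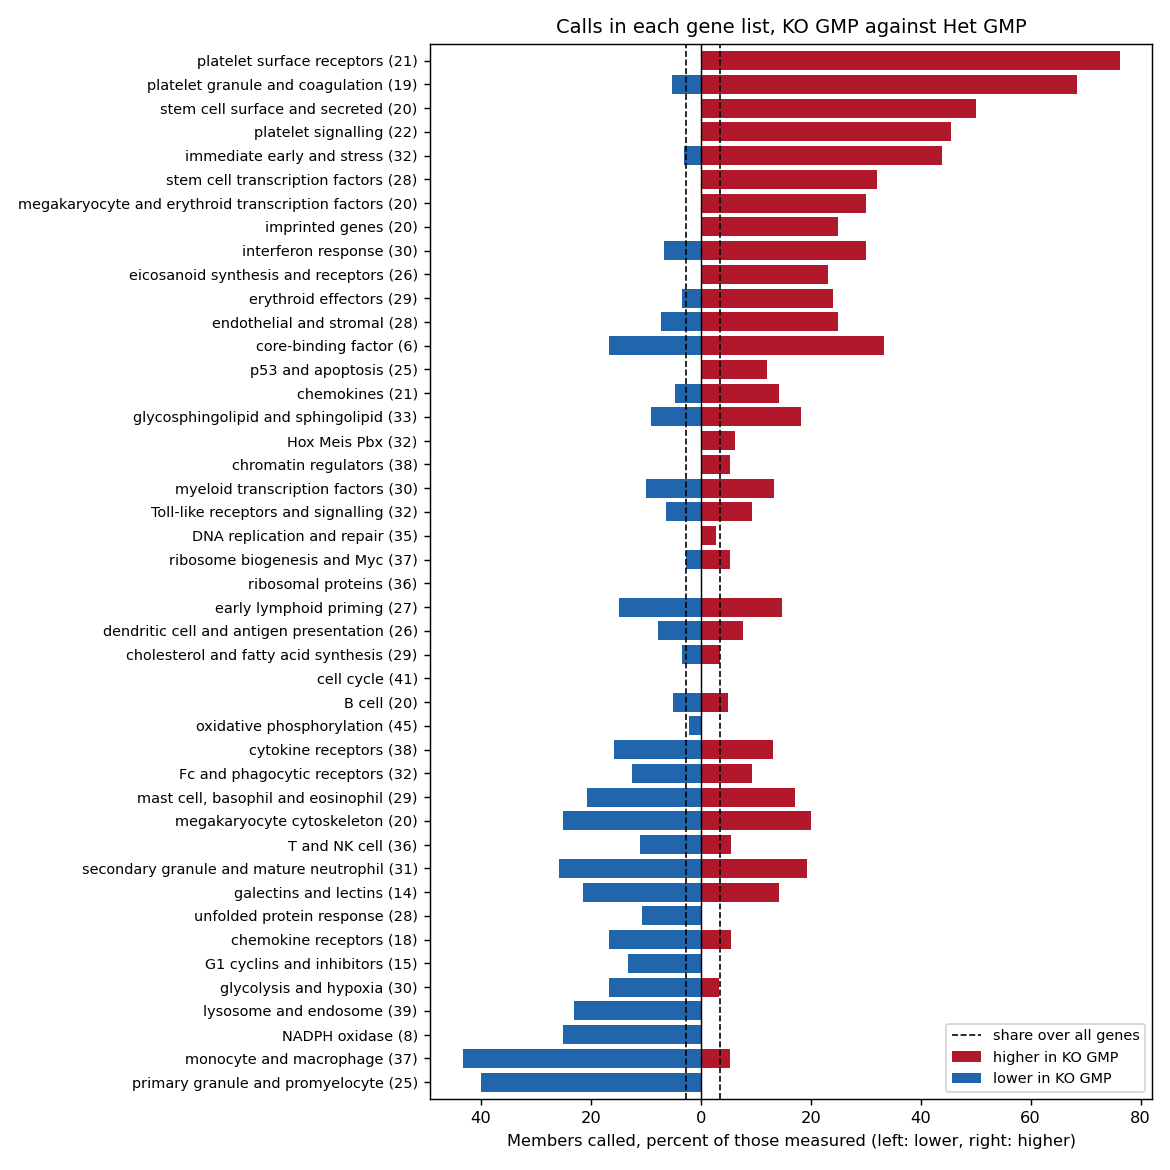
Percent of measured members of each gene list called higher (red, to the right) or lower (blue, to the left) in KO GMP, with the number measured in brackets and dashed lines at the shares over all genes, 3.52% and 2.65%. Platelet surface receptors have the largest share higher and monocyte and macrophage genes the largest share lower, while cell cycle and ribosomal protein genes have none.

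The same contrast in LSK shows which of these changes were shared with less mature cells. Of the 752 rises in GMP 327 also rose in LSK, and of the 560 falls 263 also fell there, where 3.02% of all rows were higher and 4.71% lower in KO LSK. The difference between the contrasts, tested as an interaction over all rows, was called for 178 of the rises, 88 of the falls and 2.29% of all rows. Among the 121 rises of 4-fold or more 94 also rose in LSK, and the interaction was called for 50 of them, with the larger rise in GMP for 47. Among the 53 falls of 4-fold or more 37 also fell in LSK and the interaction was called for 19, all with the larger fall in GMP. Both sets were chosen by a large GMP difference, which also enters the interaction. Their lean to larger changes in GMP is thus a description only. The median level of those 121 genes was 4.58 in Het GMP, 5.83 in Het LSK, 7.28 in KO GMP and 7.62 in KO LSK.

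Gp9, Thbs1 and Mmrn1 were among the platelet genes with a larger rise in GMP. Gp9 rose by 3.70 in GMP against 0.51 in LSK, Thbs1 by 3.64 against 0.77 and Mmrn1, multimerin 1, by 4.19 against 0.58 (limma, interaction adjusted p = 0.00155, 0.00128 and 0.00128). For Clec1b the differences were 4.78 in GMP and 5.91 in LSK and the interaction did not pass (adjusted p = 0.103). Ccr2 and Gpr141 were losses that differed: by -2.0 in GMP against 0.40 in LSK and by -2.98 against -0.18 (interaction adjusted p = 0.00264 and 0.00128). Ly86, with -4.37 and -3.26, gave no called interaction.

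In 26 rows the genotype difference was called in both cell types with opposite signs, 23 of them up in GMP and down in LSK, and the interaction was called for all 26. Il7r read 3.41 in Het GMP and 5.44 in KO GMP on average, and 7.29 in Het LSK and 5.46 in KO LSK. Pf4 rose by 2.23 in GMP and fell by 1.25 in LSK. Trp53i11, a p53-induced gene, rose by 1.26 and fell by 1.53, and Pdzk1ip1, a membrane protein of stem cells, rose by 1.95 and fell by 1.77. Antigen presentation genes of the class I type were in this set: H2-Q4 rose by 0.83 in GMP and fell by 0.73 in LSK, and Mr1 rose by 0.55 and fell by 0.84. The GMP calls of Anxa1 and Mr1 were lost without any 1 of the 4 GMP arrays, and that of H2-Q4 without the first Het array, the second Het array or the first KO array. In 22 of the 23 the Het LSK mean lay above the Het GMP mean, Anxa1 being the exception at 8.23 and 9.81. Since the same Het arrays enter the choice of these genes and this count, the count is a description only. Those genes not described with their lists above were chosen after their values were seen.

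**Figure D5:**
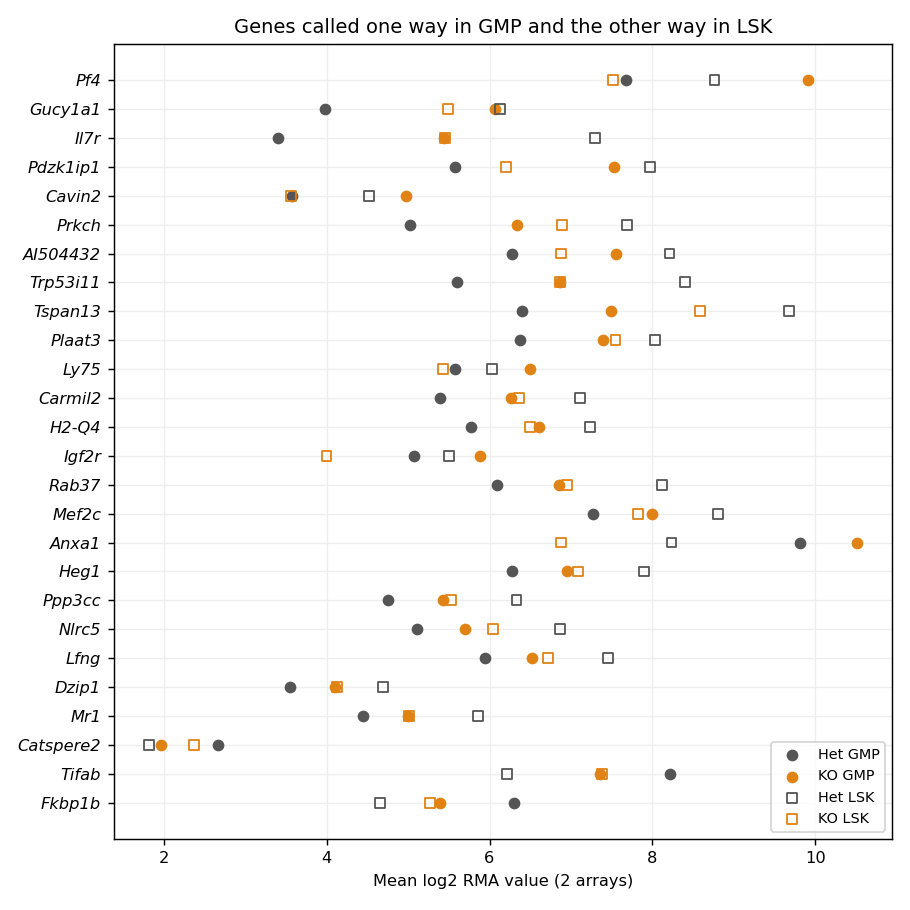
Mean log2 RMA value over 2 arrays (horizontal axis) of the 26 genes called one way in GMP (filled circles) and the other way in LSK (open squares), with Het in grey and KO in orange, in the order of the GMP difference. For Il7r, Trp53i11 and several others the KO GMP and KO LSK values nearly coincide while the Het values lie apart.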

How the data were processed

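The deposited values are log2 RMA values, 1 per transcript cluster and array, made by the authors with RMA per the submitters' processing notes (the sources used here give no software version or genome build). Arrays give no read depth, and 2 arrays a group limit the precision. Arrays were assigned to groups by their titles. Rows with 1 gene symbol were fitted with limma 3.58.1 in R 4.3.3 (lmFit and eBayes, 4 group means, 8 arrays, 4 residual degrees of freedom), with Benjamini-Hochberg adjustment over 21789 rows, and the code was tested on simulated data. Where a gene had several rows (999 genes), lists used its brightest row, by the mean of the 8 arrays.

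The members and the 44 gene lists and 38 families were chosen with earlier results of these data known. The genes printed were picked by hand from those that a rule names: the 40 largest called rises and falls without predicted genes, up to 4 called members each way in each list and family (or its 2 largest differences), the core-binding factor genes and the cell type markers. Outside this rule, chosen after their values were seen, are Adcy6, Angpt1, Anxa1, Cd68, Cd274, Ddx58, Eng, F2rl2, Fut4, H2-Q4, Htr2a and Ier5. So are Ltc4s, Mr1, P2ry1, Pde3b, Pde4b, Pdzk1ip1, Pear1, Ppbp, Prkg1, Prss34, Rap1b, Tie1 and Trp53i11. Promoter sequences are from RefSeq (GRCm38.p6), matched by symbol.

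Alternatives were array medians subtracted, the lowest 30 percent of rows left out, all rows tested, GMP arrays alone, a trended prior variance, the replicate number as a block, each array left out, a minimum of 2-fold and the mean of all rows of a gene. KO and Het arrays come from different mice, so their shared replicate numbers do not pair them.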

Additional observations from a re-analysis of the deposited data

Results flagged for a closer look

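The genotype difference was not of the same size in GMP and LSK for 80 of 176 genes named above and checked, by limma's interaction test with an adjusted p under 0.05 over all rows. Many of these genes were named for their GMP difference, which also enters this test, so the count is a description only. The values are the KO minus Het difference in GMP minus that in LSK, on the log2 scale, and a positive value means a higher difference in GMP. The contrasts share no array, and each has 2 arrays a genotype. With 2 mice stated for each genotype, its GMP and LSK arrays may come from the same mice, which the labels do not settle, and the test took them as independent. Deviations of same-numbered GMP and LSK arrays from their group means correlated across rows at 0.13 in Het and 0.18 in KO.

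Among the genes that rose in GMP, those of platelet receptors, granules and their signalling enzymes were Mmrn1 (3.61), Pf4 (3.48), Gp9 (3.20), Prkcq (2.90), Thbs1 (2.87), Gucy1a1 (2.73), Alox12 (2.69), Lat (2.15), F2r (2.13), Prkch (2.10), Prkg1 (2.10), Pde5a (1.93), Adcy6 (1.84), Ppbp (1.80), Plek (1.71), Prkca (1.63), Gp5 (1.45), Pde10a (1.37) and Prkce (1.31). Blood progenitor, cytokine receptor and immediate early genes that rose with a higher difference in GMP were Il7r (3.86), Pdzk1ip1 (3.71), Egr1 (2.77), Meis1 (2.52), Zfpm1 (2.32), Hemgn (2.24), Adgrg1 (1.97), Emcn (1.86), Gata1 (1.41) and Epor (1.31), and immune genes were Gimap6 (2.83), H2-Q4 (1.56), Oasl2 (1.46), Gimap1 (1.45), Mr1 (1.39) and Ddx58 (1.16). The other genes that rose with a higher difference in GMP were Slc14a1 (3.24), Trp53i11 (2.79), Mtss2 (2.18), Anxa1 (2.05), Gcnt2 (1.96), H2-Ob (1.83), S1pr1 (1.76), St3gal6 (1.61), Plxnc1 (1.18) and Ltc4s (1.15). A rise smaller in GMP than in LSK was seen for Cpa3 (-2.99), Cd200r4 (-2.50), Cxcr2 (-1.93) and Fcgr2b (-1.64).

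Among the genes that fell in GMP, monocyte, granulocyte and related genes with the larger fall there were Gpr141 (-2.80), Aoah (-2.74), Ms4a2 (-2.41), Ccr2 (-2.40), F10 (-2.03), Sorl1 (-1.77), Cebpa (-1.27), Epx (-1.25) and Prss34 (-1.08), and the other such genes were Ly6a2 (-3.24), Met (-2.35), Kcnj2 (-1.96), Asns (-1.54), Sema4a (-1.41), Flt1 (-1.38), Galnt3 (-1.36), Plcb1 (-1.08), Fut7 (-1.02) and Pgam1 (-0.93). A fall smaller in GMP than in LSK was seen for Emb (2.33), Nkg7 (2.14), Cd74 (1.77), Actn1 (1.36), Notch1 (1.08) and Ccnd1 (0.83). The difference between the cell types also passed for genes with no call in GMP: Ebf1 (3.34), Cd79a (3.11), Mecom (2.39), Procr (2.12), Fcgr3 (-1.84) and Pax5 (1.51), of which the B cell genes Cd79a, Ebf1 and Pax5 fell in LSK, by 3.05, 3.42 and 1.52.

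Rows without a single gene symbol were outside the comparison and also held signal. With the whole table tested together, 9 of 1621 rows with several gene symbols were higher and 5 lower in KO GMP, and 53 of 12146 rows with no symbol were higher and 36 lower. In the same fit 420 of the 21789 rows with 1 gene symbol were higher and 261 lower.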

How the results depend on the processing

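Across the alternatives no called gene changed its direction, an outcome largely fixed in advance. Leaving out 1 array could not reverse a called row, since both KO arrays lay beyond both Het arrays in each. Most other settings changed the spread or the rows tested and not the difference. The 752 higher and 560 lower rows became 482 and 302 with the whole table tested together (420 and 261 of them with 1 gene symbol), and the cause was not tested. They became 386 and 234 with a minimum of 2-fold, by construction. Leaving out 1 array gave 404 to 900 higher and 226 to 686 lower rows, the lowest values without a GMP array and the highest without a KO LSK array. With the replicate number as a block the counts were 712 and 512, of which 682 and 482 were calls of the fit without it, and deviations of same-numbered Het GMP and KO GMP arrays correlated at -0.03. GMP arrays alone gave 886 and 653, subtracted medians 697 and 696, the lowest 30 percent left out 859 and 647, and a trended prior 865 and 675. Of 88 list counts, 36 were lower by over 1.5 times without Het GMP replicate 1, 30 without Het GMP replicate 2, 28 without KO GMP replicate 1, 34 without KO GMP replicate 2 and 35 with all rows tested. Signal low on the array limits the rest: the lowest of 5 equal groups of rows held 12 of the 1312 calls.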

Other observations

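Some genes outside the lists were among the clear changes. Cd55, a complement regulator on the cell surface, read 2.92 and 3.63 in Het GMP and 6.51 and 7.37 in KO GMP, a rise of 3.66 ± 0.36 (limma, adjusted p = 0.000456). Cd274, the co-inhibitory ligand PD-L1, read 5.42 and 5.16 against 7.62 and 7.41. Htr2a, a serotonin receptor of platelets, read 4.78 and 4.94 against 6.88 and 7.31. In each the KO arrays lay above the Het arrays.

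Olfactory receptor and keratin genes, which blood cells are not known to use, gave few calls. Of 1233 olfactory and vomeronasal receptor genes 2 were higher and 1 lower. Their median level in Het GMP was 2.48, within the range of the lowest 4358 rows, of which 4 were higher and 8 lower, so the low count goes with the low level. Of 99 keratin and keratin-associated genes none passed limma's test, and 1 was higher and 4 lower at an unadjusted p under 0.05.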
